A study of Homo sapiens with 22 samples.

Results

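The genes described here are the 37 genes of the human mitochondrial genome. They were taken as every gene of the count files that the annotation places on chrM with a symbol starting in MT-, and they are 37 of the 57820 genes counted. They comprise 13 protein-coding genes, 2 ribosomal RNA (rRNA) genes and 22 transfer RNA (tRNA) genes. By strand of the annotation, 28 lie on the plus strand and 9 on the minus strand. The cells were MDA-MB-231, a long-established human cell line of triple-negative breast cancer. In the shControl group they carried a control short hairpin RNA. In the shLOXL2 group the hairpin targeted the RNA of LOXL2, the gene of the secreted amine oxidase lysyl oxidase-like 2. RNA sequencing gave 3 libraries per group, labelled replicates 1 to 3, and open chromatin (ATAC-seq) also gave 3 per group. The labels name no age of the culture, no time after the hairpin was introduced and no clone, and do not say that the replicates were separate cultures, so every p-value measures the spread between these libraries only.

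The mitochondrial genome is a small circle that encodes subunits of the respiratory chain and of ATP synthase, together with the rRNAs and tRNAs needed to translate them inside the organelle. Both strands are transcribed as long polycistronic RNAs by the polymerase POLRMT with the factors TFAM and TFB2M. Most mRNAs are flanked by tRNAs, and cutting out the tRNAs releases the mRNAs and rRNAs. The mature mRNAs receive short poly(A) tails, with MT-ND6 known as the mRNA that lacks such a tail. All other subunits of these complexes, and all proteins that copy, transcribe and translate the mitochondrial genome, are made from nuclear genes.

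Library totals ranged from 40254464 to 49375803 counts, and 15602 genes had enough counts to be tested. LOXL2 itself stood at 445, 413 and 379 CPM with shControl and at 132, 139 and 99.1 CPM with shLOXL2, where CPM is the usual unit of counts scaled to a common library size. shControl replicate 3 stood apart from its group: over all genes it differed from the other 2 by a chi-square of 19.1 to 21.5 per gene, while the remaining pairs within groups gave 5.26 to 11.1. Results that turn on this library are given with and without it. Of 5 genes known to be expressed in this line (VIM, CD44, AXL, CAV1 and KRT18), all were detected, with summed levels of 6346 to 6583 CPM in shControl and 6441 to 6827 CPM in shLOXL2. Of 5 genes listed as low or absent in the line, ESR1 and PGR had at most 1 and at most 6 counts in any library and CDH1 had 12 to 19. GATA3, at 10.4 to 10.9 CPM in shControl and 8.80 to 9.20 in shLOXL2, and EPCAM, at 12.1 to 13.7 and 12.7 to 14.2 CPM, were detected, and GATA3 was called lower (log2 fold change -0.25, edgeR adjusted p = 0.0200). Of 9 markers of blood, vessel and stromal cells, 8 were matched, with summed levels of 19.8 to 21.4 CPM in shControl and 29.9 to 37.0 CPM in shLOXL2. Most of that sum was COL1A1, a collagen gene, at 19.1 and 32.8 CPM on average, while CD3E had 0 counts in all 6 libraries.

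The genes lie on chrM of GRCh37, a circle of 16569 bases in the reference used, with almost no space between them. Where 2 reading frames overlap, reads in the shared bases cannot be given to either gene alone. Each protein-coding gene is counted here as 1 mRNA, although genes with overlapping reading frames may lie on the same RNA. The first pair of lines shows the longer such overlaps in capitals on the plus strand, with 20 bases on each side. MT-ATP8 and MT-ATP6 share 46 bases (chrM:8527-8572) and MT-ND4L and MT-ND4 share 7 (chrM:10760-10766). MT-ATP6 and MT-CO3 share 1 base, which is not shown.
MT-ATP8/MT-ATP6, chrM:8507-8592: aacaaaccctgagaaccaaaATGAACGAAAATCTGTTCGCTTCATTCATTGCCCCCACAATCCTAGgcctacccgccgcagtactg
MT-ND4L/MT-ND4, chrM:10740-10786: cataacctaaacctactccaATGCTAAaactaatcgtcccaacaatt
The next pair shows MT-ND6, the protein-coding gene on the other strand, because it is the mRNA whose difference had the opposite sign. On the plus strand its complement follows the end of MT-ND5 without a gap, and the capitals in the first line mark where it begins (chrM:14149). The second line is the start of MT-ND6 read on the minus strand, with the start codon in capitals.
MT-ND5/MT-ND6, chrM:14129-14168: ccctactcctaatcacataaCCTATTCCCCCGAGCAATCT
MT-ND6 start, chrM:14634-14673: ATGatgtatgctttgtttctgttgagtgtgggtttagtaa
MT-ND6 also differs in base composition: 35.6% of its bases are G on its coding strand, against 6.28% to 16.2% in the 12 plus-strand mRNAs. Of the 13 protein-coding genes, 6 have a length that is no multiple of 3 (MT-ND1, MT-ND2, MT-CO3, MT-ND3, MT-ND4 and MT-CYB), as known for mitochondrial genes whose stop codon is completed by the poly(A) tail.

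In the shControl cells the 37 genes took 3.78%, 4.04% and 3.33% of all counts. In the shLOXL2 cells they took 4.65%, 5.88% and 4.73%. Every shLOXL2 library lay above every shControl library, with replicate 2 of shLOXL2 the highest and replicate 3 of shControl the lowest. The mean share was 3.72% ± 0.358 (SD, n = 3) with shControl and 5.08% ± 0.689 (SD, n = 3) with shLOXL2. The difference was 1.36-fold, where the folds of shares and ratios here are those of mean log2 values. On the log2 scale the difference was 0.45 with all libraries, 0.37 without shControl replicate 3 and 0.34 without shLOXL2 replicate 2. The two-sided exact permutation test gave p = 0.1 (adjusted 0.15 over 6 shares), the smallest p that 3 against 3 libraries allow, so no share or ratio below could pass a threshold of 0.05. In bulk RNA, a change in the number of cells of a kind and a change in RNA per cell cannot be told apart.

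The 13 mRNAs carried most of this share. They took 3.10%, 3.40% and 2.72% of counts with shControl and 3.87%, 4.97% and 3.96% with shLOXL2. This is a 1.39-fold difference without overlap of the groups (exact permutation p = 0.1, adjusted 0.15). The 2 rRNAs took 0.684%, 0.640% and 0.605% against 0.771%, 0.902% and 0.764%, a 1.26-fold difference, also without overlap (exact permutation p = 0.1, adjusted 0.15). The 22 tRNAs together took 0.00196%, 0.00214% and 0.00223% against 0.00206%, 0.00290% and 0.00252%. Here the groups overlapped (exact permutation p = 0.3, adjusted 0.3). The log2 difference of the tRNA share was 0.23 with all libraries, 0.11 without shLOXL2 replicate 2 and 0.36 without shLOXL2 replicate 1.

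By strand, the 28 plus-strand genes took nearly all of the counts, 3.71% ± 0.358 (SD, n = 3) with shControl and 5.08% ± 0.688 (SD, n = 3) with shLOXL2. Strand here is that of the annotated gene, since the strand setting of the counts is not given in the sources used here. The 9 minus-strand genes had a lower mean with shLOXL2. They took 0.00460%, 0.00430% and 0.00540% of counts in shControl and 0.00290%, 0.00463% and 0.00320% in shLOXL2. Replicate 2 of shLOXL2 lay above 2 of the 3 shControl libraries, so the groups overlapped (0.737-fold, exact permutation p = 0.3, adjusted 0.3).

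**Figure D1:**
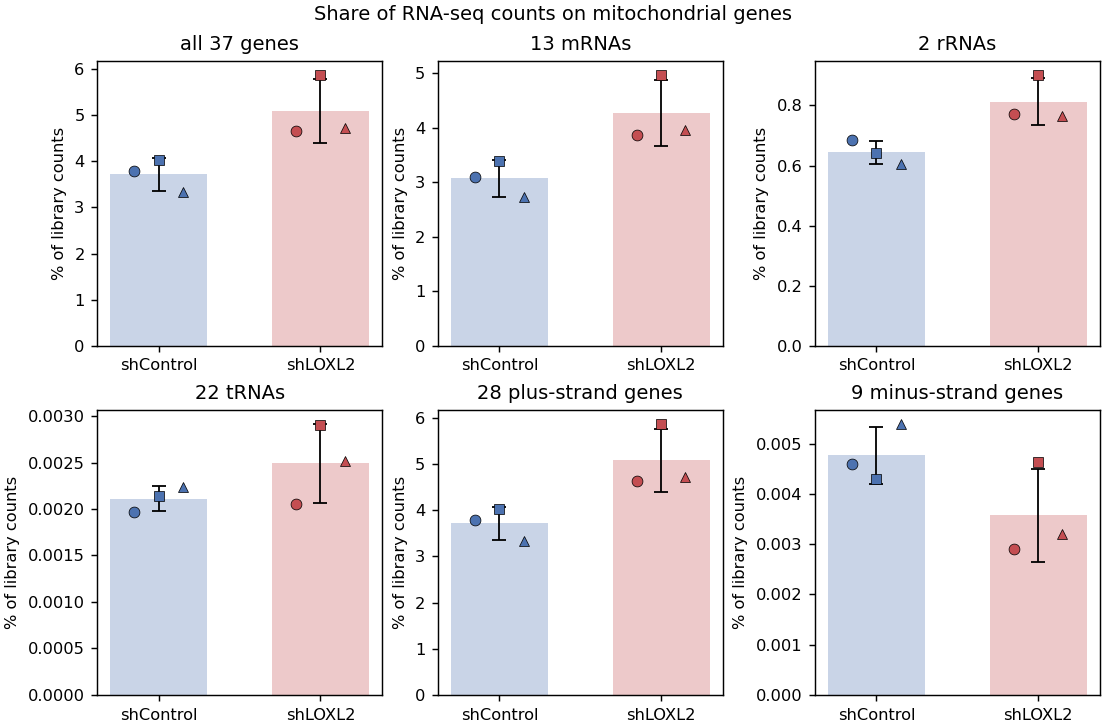
Share of each library's counts, in percent, on all 37 mitochondrial genes, on each class and on each strand; points are libraries (circle, square and triangle for replicates 1, 2 and 3), bars are group means from 0 and error bars are 1 SD. The shLOXL2 points lie above the shControl points for all genes, mRNAs, rRNAs and plus-strand genes, and overlap with them for tRNAs and minus-strand genes.

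Levels between genes were compared as CPM per kilobase of gene length. In the shControl cells MT-CO2, MT-CO3 and MT-ND4 were the highest, at 5499 ± 618, 4860 ± 481 and 4646 ± 652 CPM per kb (SD, n = 3), and their ranges overlapped. MT-CO2 and MT-CO3 encode core subunits of cytochrome c oxidase (complex IV), and MT-ND4 encodes a proton-pumping membrane subunit of NADH dehydrogenase (complex I). MT-RNR2, the rRNA of the large mitochondrial ribosome subunit, followed at 3615 ± 269 CPM per kb, apart from the genes above and below it. Next came MT-ATP6 (3007 ± 286), MT-CO1 (2893 ± 386), MT-ND4L (2439 ± 308), MT-ND3 (2214 ± 72.6) and MT-ND2 (2211 ± 127 CPM per kb), each overlapping its neighbour in the order. MT-CYB (1869 ± 172) and MT-ND1 (1822 ± 186) formed the next step, then MT-ATP8 (1105 ± 8.84) and MT-ND5 (993 ± 131), then MT-RNR1 (727 ± 98.8 CPM per kb), the rRNA of the small ribosome subunit. MT-ND6 was last at 85.4 ± 11.3 CPM per kb.

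Among the plus-strand mRNAs the highest level per kb was 5.54 times the lowest in shControl. The step from MT-ND5 to the neighbouring MT-ND6 was larger, 11.6 times per kb. MT-ND4, MT-CO1, MT-CO2 and MT-CO3 together held 50.3% of all counts on the mitochondrial genes in shControl. MT-ND4 was the most abundant gene of all 57820 in each of the 6 libraries by count.

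With shLOXL2 the order changed little at the top: MT-CO2, MT-CO3 and MT-ND4 led again, at 8008 ± 1200, 7196 ± 806 and 6829 ± 1133 CPM per kb (SD, n = 3). MT-ND3 moved down to place 11 of 15, at 2534 ± 32.3 CPM per kb, below MT-ND2 (3118 ± 434), MT-ND1 (2912 ± 460) and MT-CYB (2561 ± 402). Its range still overlapped that of MT-CYB. MT-ND6 was again last, at 65.9 ± 17.6 CPM per kb.

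**Figure D2:**
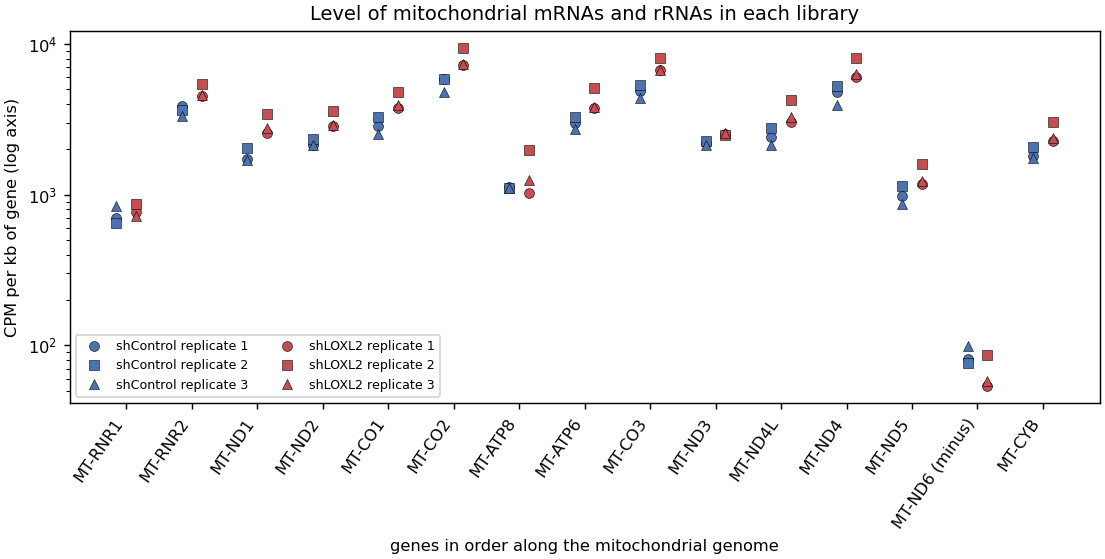
Level of the 13 mRNAs and 2 rRNAs in each library, in CPM per kilobase of gene on a log axis, in order along the mitochondrial genome; each point is a library, shControl left and shLOXL2 right. All mRNAs except MT-ND6 stand at 873 CPM per kb or more, MT-ND6 stands at 98.2 or less, and shLOXL2 replicate 2 is the highest point for 11 of the 13 mRNAs.

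Of the 37 genes, 24 passed the filter on low counts. Of these, 14 were higher with shLOXL2 at an adjusted p below 0.05 (edgeR quasi-likelihood test, Benjamini-Hochberg over all 15602 genes tested), 0 were lower and 10 were not called. Over all tested genes, 42.9% were called in either direction, 21.6% higher and 21.3% lower. The median log2 fold change was 0.41 over the 24 mitochondrial genes and 0.00 over all genes when rounded (-0.0032). The 14 called genes were also those whose groups did not overlap, against 53.9% of all tested genes not overlapping, 27.3% with shLOXL2 higher and 26.6% with shLOXL2 lower. At an unadjusted p below 0.05, 1 gene (MT-ND6) was lower. DESeq2 called 0 lower (19.5% of all genes it tested) and limma-voom called MT-ND6 lower (21.1% of all). These directions are relative to the whole library: scaled to the summed counts of the 37 genes themselves, which fixes their sum by construction, 17 of the 24 log2 fold changes lay below 0 and they ranged from -0.91 to 0.19.

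Among the mRNAs, 11 of 13 were called higher relative to the whole library, with a median log2 fold change of 0.50 over the 13. Scaled to the mitochondrial sum, none was called higher, and the log2 fold changes of the 13 lay between -0.91 and 0.17. MT-ND1 (ENSG00000198888.2, chrM:3307-4262), a membrane subunit of complex I, had the largest change among the mRNAs. It stood at 1721, 2037 and 1708 CPM per kb in shControl and at 2552, 3430 and 2754 in shLOXL2. The groups were well apart, with the log2 fold change 0.68 (SE 0.10, adjusted p = 0.000291 in edgeR).

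The other complex I genes of the plus strand also rose. MT-ND2 (chrM:4470-5511) stood at 2150, 2356 and 2126 CPM per kb in shControl and at 2851, 3619 and 2885 in shLOXL2. MT-ND4 (chrM:10760-12137) stood at 4768, 5228 and 3942 against 6052, 8130 and 6306 CPM per kb. In both genes the lowest shLOXL2 library lay above the highest shControl library. The log2 fold changes were 0.50 (SE 0.09) for MT-ND2 and 0.56 (SE 0.12) for MT-ND4. MT-ND4L, whose last bases lie in MT-ND4, changed by 0.53 (SE 0.12), and its counts were 10.9%, 11.4% and 11.7% of those of MT-ND4 in shControl and 10.7%, 11.4% and 11.1% in shLOXL2, a proportion that overlapped between the groups. MT-ND5 (chrM:12337-14148), the largest subunit gene, changed by 0.43 (SE 0.11) with all libraries and by 0.28 without shLOXL2 replicate 2. The edgeR adjusted p of these 4 genes lay between 0.000701 and 0.00999.

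MT-ND3 (chrM:10059-10404), a small complex I subunit, rose least of the called mRNAs. It stood at 2214, 2287 and 2142 CPM per kb in shControl and at 2539, 2500 and 2564 in shLOXL2. The libraries of each group lay close together, and shLOXL2 replicate 2, the highest library for 11 of the other 12 mRNAs, was the lowest of its group here. The log2 fold change was 0.19 (SE 0.04, adjusted p = 0.00455 in edgeR). Relative to the other plus-strand mRNAs, MT-ND3 counts were 2.60%, 2.43% and 2.83% in shControl and 2.30%, 1.73% and 2.25% in shLOXL2, lower in all 3 shLOXL2 libraries. This proportion was chosen after its values were seen, and its log2 difference of -0.33 shrank to -0.20 without shLOXL2 replicate 2.

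The 3 complex IV genes rose by similar amounts. MT-CO1 (chrM:5904-7445) stood at 2851, 3298 and 2528 CPM per kb in shControl and at 3751, 4803 and 3913 in shLOXL2. MT-CO2 (chrM:7586-8269) stood at 5866, 5846 and 4785 against 7261, 9393 and 7371, and MT-CO3 (chrM:9207-9990) at 4851, 5346 and 4383 against 6693, 8125 and 6770 CPM per kb. No shLOXL2 library reached down into the shControl range for these genes. The log2 fold changes were 0.52 (SE 0.10), 0.54 (SE 0.10) and 0.57 (SE 0.09), with edgeR adjusted p-values of 0.00183, 0.00134 and 0.00031.

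MT-CYB (chrM:14747-15887), the cytochrome b of complex III, stood at 1798, 2065 and 1744 CPM per kb against 2283, 3021 and 2379. The log2 fold change was 0.45 (SE 0.10, adjusted p = 0.00314 in edgeR). MT-ATP6 (chrM:8527-9207), which forms the proton path of ATP synthase (complex V), stood at 3008, 3293 and 2721 against 3781, 5143 and 3803 CPM per kb. It rose by 0.50 on the log2 scale (SE 0.11, adjusted p = 0.00352 in edgeR).

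MT-ATP8 (chrM:8366-8572), a small subunit of the same complex encoded just before MT-ATP6, was not called. It stood at 1115, 1100 and 1099 CPM per kb in shControl, the tightest group of any mRNA, and at 1033, 1988 and 1247 in shLOXL2. The shLOXL2 libraries spread on both sides of shControl. The log2 fold change of 0.36 (SE 0.17, adjusted p = 0.117 in edgeR) was 0.04 without shLOXL2 replicate 2 and 0.55, then past the threshold, without shLOXL2 replicate 1 (edgeR adjusted p = 0.0132). MT-ATP8 was also called with no filter on low counts (0.36, edgeR adjusted p = 7.72e-11), where 22.5% of 30390 genes were called. Its groups overlapped, so that call is not counted as support for a rise. Counts of MT-ATP8 were 11.3%, 10.2% and 12.3% of those of MT-ATP6 in shControl and 8.30%, 11.8% and 9.97% in shLOXL2. This proportion, chosen after its values were seen, overlapped between the groups. These overlapping genes need not be separate RNAs, so their calls are not read as different responses.

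Summed by complex, the mitochondrial mRNAs of complexes I, III, IV and V were each higher in every shLOXL2 library than in any shControl library. The 7 genes of complex I summed to 13782 ± 1510 CPM and 19821 ± 3060 CPM (SD, n = 3), and the 3 of complex IV to 12032 ± 1343 and 17527 ± 2323 CPM. The log2 differences were 0.52 for complex I, 0.45 for complex III, 0.54 for complex IV and 0.47 for complex V (exact permutation p = 0.1 each, adjusted 0.133 over 8 sums). The complexes kept nearly the same proportions to each other: complex I held 45.6% of the mitochondrial mRNA counts in both groups on average, and complex IV 39.8% and 40.4%.

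The same libraries stood at the ends of the range for most genes. Of the 11 called mRNAs, shControl replicate 3 was lowest in 11 and shLOXL2 replicate 2 was highest in 10. Without shLOXL2 replicate 2 the median log2 fold change of the mRNAs was 0.36, and without shControl replicate 3 it was 0.43. Leaving out each library in turn left between 13 and 16 mitochondrial genes called, with 34.3% to 44.4% of all tested genes called in those fits.

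**Figure D3:**
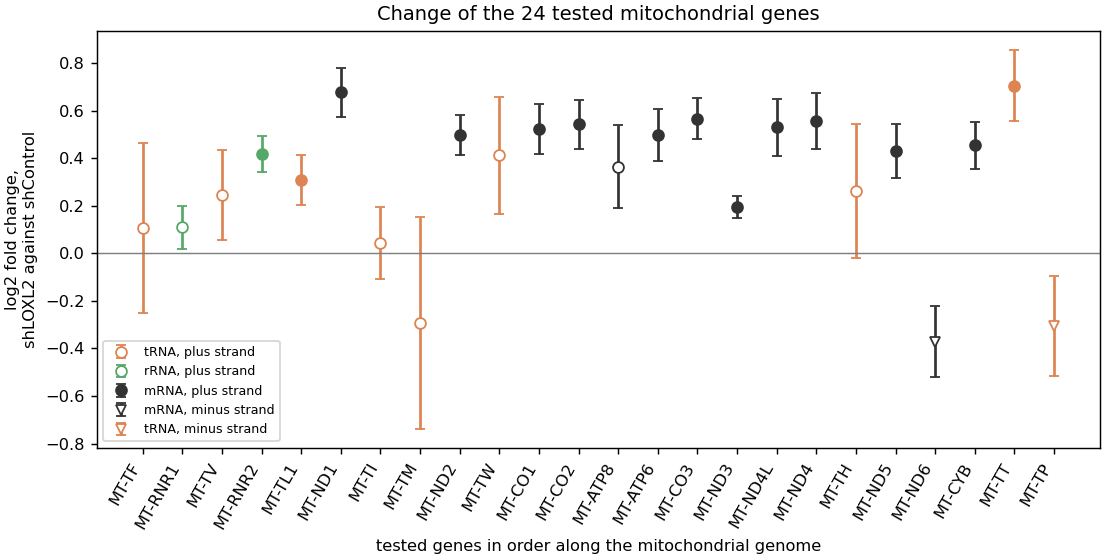
Log2 fold change of shLOXL2 against shControl for the 24 tested mitochondrial genes, relative to the whole library, in order along the genome, with bars of 1 SE from the edgeR fit; filled symbols passed an adjusted p of 0.05, open symbols did not, circles are plus-strand and triangles minus-strand genes. The filled mRNAs lie between 0.19 and 0.68, and both tested minus-strand genes lie below 0.

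MT-ND6 (ENSG00000198695.2, chrM:14149-14673, minus strand) encodes a membrane subunit of complex I and held 95.3% of all minus-strand counts. It stood at 81.3, 76.7 and 98.2 CPM per kb in shControl and at 53.5, 86.1 and 58.3 in shLOXL2. Replicates 1 and 3 of shLOXL2 lay below all shControl libraries and replicate 2 lay inside their range. The log2 fold change was -0.37 (SE 0.15, adjusted p = 0.0663 in edgeR), which did not pass the threshold. Without shLOXL2 replicate 2 it was -0.61 (edgeR adjusted p = 0.00153), and without shLOXL2 replicate 1 it was -0.25 (edgeR adjusted p = 0.226). Without shControl replicate 3, the library with the highest MT-ND6 level, it was -0.26 (edgeR adjusted p = 0.107).

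The ratio of minus-strand to plus-strand counts within a library does not depend on how libraries are scaled. It does depend on the strand setting of the counts, which is not given in the sources used here. Without strand, counts on MT-ND6 and other minus-strand genes may include reads of plus-strand RNA, and this was not tested. Minus-strand genes had 0.122%, 0.107% and 0.162% of the plus-strand counts in shControl and 0.0624%, 0.0788% and 0.0677% in shLOXL2. The groups did not overlap: the highest shLOXL2 library lay below the lowest shControl library. The log2 ratio differed by -0.89, shLOXL2 against shControl, or 0.54-fold (exact permutation p = 0.1, adjusted 0.2 over 4 ratios). It stayed between -1.02 and -0.72 when any library was left out. This ratio of sums is mostly that of MT-ND6 to the abundant plus-strand genes: as a mean over genes of log2 counts per kilobase, which gives each tRNA the same weight, the difference was -0.23 (exact permutation p = 0.4).

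Scaled to the sum of the mitochondrial genes, MT-ND6 had a log2 fold change of -0.91 (SE 0.21), the lowest of the 24 genes fitted. MT-TP, the proline tRNA and the other tested minus-strand gene, had -0.81 (SE 0.22) on that scale, and the plus-strand mRNAs lay between -0.29 and 0.17. Since MT-ND6 is known to lack a poly(A) tail, RNAs without such tails were looked at beside it. Of 10 nuclear RNAs without poly(A) tails, 5 were matched, and they summed to 19.5 to 33.1 CPM in shControl and 17.3 to 28.3 CPM in shLOXL2. RN7SK, the RNA of a transcription elongation inhibitor, and RN7SL2, a signal recognition particle RNA, were the 2 with enough counts to test, and neither was called (log2 fold changes -0.39 and -0.15, edgeR adjusted p = 0.208 and 0.659). The part of RNA selection in the MT-ND6 result was not tested.

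**Figure D4:**
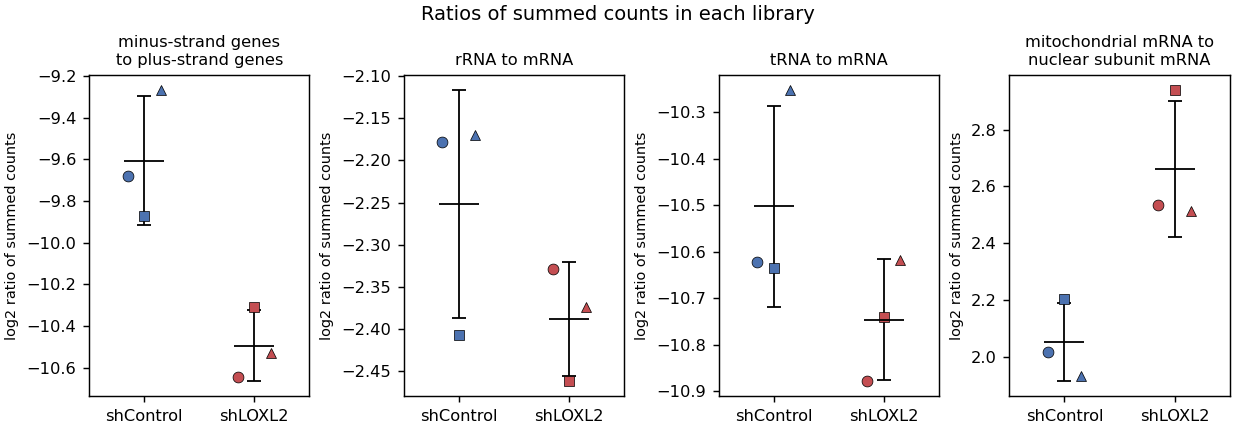
Log2 ratios of summed counts in each library for minus-strand to plus-strand genes, rRNA to mRNA, tRNA to mRNA and mitochondrial mRNA to nuclear subunit mRNA; points are libraries, horizontal lines are means and bars are 1 SD, and each panel has its own axis that does not start at 0. The groups are apart in the first panel (lower with shLOXL2) and in the last (higher with shLOXL2), and overlap for rRNA and tRNA to mRNA.

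The rRNA genes sit at the start of the plus-strand transcript, MT-RNR1 (chrM:648-1601) before MT-RNR2 (chrM:1671-3229). MT-RNR2 (ENSG00000210082.2) stood at 3868, 3645 and 3333 CPM per kb in shControl and at 4522, 5396 and 4557 in shLOXL2. All shLOXL2 libraries lay above shControl, and the log2 fold change was 0.42 (SE 0.08, adjusted p = 0.00111 in edgeR). MT-RNR1 (ENSG00000211459.2) stood at 697, 646 and 837 against 765, 863 and 722 CPM per kb.

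shControl replicate 3, the lowest library for the called mRNAs, was the second highest for MT-RNR1, and the groups overlapped. The log2 fold change of MT-RNR1, 0.11 (SE 0.09, adjusted p = 0.363 in edgeR), became 0.22 (edgeR adjusted p = 0.00759) without that library. MT-RNR1 counts were 11.03%, 10.8% and 15.4% of MT-RNR2 counts in shControl and 10.4%, 9.79% and 9.70% in shLOXL2. This ratio was chosen after its values were seen. Its log2 difference was -0.30 with all libraries and -0.14 without shControl replicate 3. Per kb, MT-RNR2 was 4.98 times MT-RNR1 in shControl. A mitochondrial ribosome contains both rRNAs in equal number. Of 50-base windows, 42.8% in MT-RNR1 and 14.5% in MT-RNR2 have an exact match in the nuclear genome. The part of such matches, or of RNA selection, in the difference in level between the 2 rRNAs was not tested. Against the mRNAs, the log2 ratio of rRNA differed by -0.14 between groups that overlapped (exact permutation p = 0.3, adjusted 0.3), and by -0.21 without shControl replicate 2.

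The 22 tRNA genes had 5959 counts in all 6 libraries together, 5455 on the 14 plus-strand and 504 on the 8 minus-strand genes. Mature tRNAs are short and are mostly lost in RNA-seq libraries, so these counts can include precursor RNA that joins a tRNA to its neighbours. How much of them is mature tRNA was not tested. The 5 tRNA genes with most counts, MT-TL1, MT-TT, MT-TI, MT-TP and MT-TV, held 88.4%. Of the 22, 9 had enough counts to test, 13 did not (at most 19 counts in any library), and MT-TN, MT-TC and MT-TK had 0 counts in all 6. A count of 0 allows up to 3 counts per library, which is 0.0598 to 0.0752 CPM, and this limit covers counting error only.

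The tRNAs the results turn on are shown next. The first line gives MT-TL1, the leucine tRNA with the most counts, in capitals between the last bases of MT-RNR2 and the first of MT-ND1. The others are written on their own strand with the last 3 bases in capitals. MT-TT (threonine) and MT-TP (proline) are neighbours on opposite strands, and MT-TN (asparagine), MT-TC (cysteine) and MT-TK (lysine) are those without counts.
MT-RNR2/MT-TL1/MT-ND1, chrM:3220-3316, plus: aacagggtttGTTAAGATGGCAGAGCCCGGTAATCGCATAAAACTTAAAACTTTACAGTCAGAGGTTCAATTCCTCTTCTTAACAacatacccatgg
MT-TT, chrM:15888-15953, plus: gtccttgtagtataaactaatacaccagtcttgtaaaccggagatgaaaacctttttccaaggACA
MT-TP, chrM:15956-16023, minus: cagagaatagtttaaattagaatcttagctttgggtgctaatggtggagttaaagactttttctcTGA
MT-TN, chrM:5657-5729, minus: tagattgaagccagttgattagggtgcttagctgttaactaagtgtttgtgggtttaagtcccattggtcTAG
MT-TC, chrM:5761-5826, minus: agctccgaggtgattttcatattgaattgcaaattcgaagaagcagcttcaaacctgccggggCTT
MT-TK, chrM:8295-8364, plus: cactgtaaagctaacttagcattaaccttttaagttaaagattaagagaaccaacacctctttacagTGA

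MT-TT rose with shLOXL2. It had 163, 192 and 185 counts in shControl and 208, 331 and 299 in shLOXL2, without overlap after scaling. The log2 fold change of 0.70 (SE 0.15, adjusted p = 0.00279 in edgeR) was the largest of the 24 tested mitochondrial genes. MT-TP, which lies 2 bases further on and on the opposite strand, had 78, 86 and 65 counts against 37, 71 and 68, and was not called (log2 fold change -0.31, SE 0.21, edgeR adjusted p = 0.266). Its value was -0.09 without shLOXL2 replicate 1 and -0.49 without shLOXL2 replicate 2, called in neither. MT-TP counts were 47.9%, 44.8% and 35.1% of MT-TT counts in shControl and 17.8%, 21.5% and 22.7% in shLOXL2, a proportion chosen after its values were seen.

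MT-TL1 had 253, 323 and 252 counts in shControl and 269, 356 and 345 in shLOXL2. Its log2 fold change of 0.31 (SE 0.11, adjusted p = 0.035 in edgeR) passed the threshold with all libraries. It did not pass without shControl replicate 1 (0.30), shControl replicate 2 (0.33), shLOXL2 replicate 2 (0.21) or shLOXL2 replicate 3 (0.31), with edgeR adjusted p-values between 0.0669 and 0.161. MT-TI, the isoleucine tRNA, had 160, 257 and 236 counts against 172, 236 and 230. Its groups overlapped, and the log2 fold change of 0.04 (SE 0.15) turned to -0.10 when shControl replicate 1 was left out and to -0.056 when shLOXL2 replicate 2 was left out. The minus-strand MT-TE (glutamate) and MT-TA (alanine) had 43 and 23 counts in all 6 libraries and were not tested. The log2 ratio of summed tRNA to mRNA counts differed by -0.24 between overlapping groups (exact permutation p = 0.3, adjusted 0.3), and by -0.12 without shControl replicate 3.

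The nuclear genome holds many inserted copies of mitochondrial DNA, and reads from mitochondrial RNA that match both places exactly cannot be placed in either alone. The files list 394 genes of this kind by symbol, 390 annotated as pseudogenes and 4 MTRNR2L genes annotated as protein-coding, and 281 of the 394 had 0 counts in all 6 libraries. Together they took 0.0598%, 0.0587% and 0.0537% of counts in shControl and 0.0683%, 0.0975% and 0.0713% in shLOXL2, equal to 1.45% to 1.66% of the counts on the mitochondrial genes. Of 12 tested, 6 were higher with shLOXL2, where 21.6% of all tested genes were, and the median log2 fold change of the 12 was 0.58. The copies MTATP6P1, MTND2P28, MTND4P12 and MTCO1P12 held 98.8% of the counts. MTATP6P1 (log2 fold change 0.58, SE 0.10), MTND2P28 (0.58, SE 0.07) and MTCO3P12 (0.77, SE 0.18) rose. So did MTND4P12, which lies on chromosome 5 (0.55, SE 0.10). MTCO1P12 had 11045, 10624 and 9747 counts in shControl and 9805, 18432 and 11804 in shLOXL2, and was not called (0.42, edgeR adjusted p = 0.0854). For MTCO1P12 the value was 0.09 without shLOXL2 replicate 2, and it passed the threshold without shLOXL2 replicate 1 (0.57, edgeR adjusted p = 0.0263) and with no filter on low counts (0.42, edgeR adjusted p = 2.43e-14). The fit with no filter took in 30390 genes. The groups of MTCO1P12 overlapped there too, so that call is not counted as support for a rise.

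The library in which MTCO1P12 was highest, shLOXL2 replicate 2, was also that in which most mitochondrial mRNAs were highest. A stretch on chromosome 1 (chr1:564461-570304) matched chrM:3911-9755 over 5846 aligned bases with 98.5% identity in a blastn search. It covers MT-ND2, MT-CO1, MT-CO2, MT-ATP8 and MT-ATP6 whole and parts of MT-ND1 and MT-CO3. The share of 50-base windows with an exact nuclear match was 50.6% for MT-CO1, 48.3% for MT-ATP6, 43.6% for MT-ND2 and 42.8% for MT-RNR1. It was 30.9% for MT-CO3, 29.0% for MT-CO2, 25.6% for MT-ND1, 19.96% for MT-ND6 and 14.5% for MT-RNR2. The lowest were 8.2% for MT-ATP8, 4.8% for MT-ND5, 3.5% for MT-ND4, 1.6% for MT-CYB and 0 for MT-ND3 and MT-ND4L. How reads matching 2 places were counted is not given in the sources used here. The log2 fold changes were 0.52 for MT-CO1, 0.50 for MT-ATP6, 0.50 for MT-ND2, 0.11 for MT-RNR1 and -0.37 for MT-ND6. They were 0.57 for MT-CO3, 0.54 for MT-CO2, 0.68 for MT-ND1, 0.42 for MT-RNR2, 0.36 for MT-ATP8 and 0.43 for MT-ND5. For the rest they were 0.56 for MT-ND4, 0.45 for MT-CYB, 0.19 for MT-ND3 and 0.53 for MT-ND4L. The part of these matches in the changes was not tested.

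The tRNA genes were also grouped by such matches, as a description with no test. The 7 tRNA genes in which every 50-base window has an exact nuclear match had 0 to 226 counts in all libraries together (median 20). The 8 in which no window matches had 3 to 1798 (median 243), and the 7 between had 0 to 394 (median 54). MT-TK and MT-TN are in the class with every window matched and MT-TC in the class between. The classes also differ in strand: most genes with every window matched lie on the minus strand, and of those with no match only MT-TP does. The part of these matches, or of strand, in the tRNA counts was not tested.

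Few of the nuclear genes that copy, transcribe, process and translate the mitochondrial genome rose with shLOXL2. Of 92 such genes matched and tested, 4 were called higher and 26 lower, with a median log2 fold change of -0.08. The share called is 42.9% over all tested genes, 21.6% higher and 21.3% lower, so 26 of 92 lower is above and 4 of 92 higher is below that background. The count of 4 ranged from 1 to 7 when a library was left out: it was 2 without shControl replicate 2, shLOXL2 replicate 1 or shLOXL2 replicate 2, 1 without shLOXL2 replicate 3 and 7 without shControl replicate 3.

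Of 20 genes of transcription and mtDNA maintenance, all 5 called were lower (median -0.12). The 5 of 20 lower is near the 21.3% of all tested genes called lower. TFAM, which packages mtDNA and opens its promoters, stood at 140, 142 and 168 CPM in shControl and at 118, 117 and 115 in shLOXL2. The groups were apart and the shLOXL2 libraries lay close together, with a log2 fold change of -0.37 (SE 0.07, adjusted p = 0.000973 in edgeR). DNA2, a nuclease and helicase, fell by 0.48 on the log2 scale, and PRIMPOL, a primase, fell by 0.38. The polymerase POLRMT (-0.16), its initiation partner TFB2M (-0.10) and the elongation factor TEFM (-0.12) were not called (edgeR adjusted p between 0.0912 and 0.228). POLRMT passed the threshold without shControl replicate 3 (-0.22, edgeR adjusted p = 0.00845).

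Of 22 genes of RNA processing and modification, 1 was higher and 7 lower (median -0.05), beside 21.6% and 21.3% of all tested genes. The falls included RPUSD3, a pseudouridine synthase of mitochondrial RNA (-0.37), NSUN4, which methylates rRNA (-0.37), and TRIT1, which modifies tRNAs (-0.33). Of 14 genes of RNA stability and decay, 1 was higher and 3 lower (median -0.10), the latter near the share over all tested genes. LRPPRC, which binds mitochondrial mRNAs and stabilises them, was the one that rose: it stood at 355, 366 and 392 CPM in shControl and at 437, 424 and 434 in shLOXL2. The groups did not overlap (log2 fold change 0.22, SE 0.05, edgeR adjusted p = 0.00344).

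SLIRP, the binding partner of LRPPRC, fell, from 57.8 ± 0.351 to 51.9 ± 1.18 CPM (SD, n = 3, log2 fold change -0.16, edgeR adjusted p = 0.0177). The SLIRP call was lost with the replicate number as a block (edgeR adjusted p = 0.0534), without shControl replicate 2 (0.0516) and without shLOXL2 replicate 1 (0.0774). PNPT1, an exoribonuclease of mitochondrial RNA decay, fell by 0.21, and REXO2, which degrades short RNAs, fell by 0.20 on the log2 scale. REXO2 was just outside the threshold without shLOXL2 replicate 1 (edgeR adjusted p = 0.05003).

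Of 28 translation factors and mitochondrial tRNA ligases, 1 was higher and 8 lower (median -0.04), beside 21.6% and 21.3% of all tested genes. MTRF1L, a release factor, fell by 0.50 and EARS2, the glutamate tRNA ligase, fell by 0.36 on the log2 scale. Of 8 regulators of mitochondrial biogenesis, 1 was higher and 3 lower (median -0.04). NRF1, a transcription factor for nuclear genes of mitochondrial proteins, fell by 0.36, YY1 by 0.27 and GABPB1 by 0.25 on the log2 scale, while GABPA, the DNA-binding partner of GABPB1, rose by 0.17.

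The nuclear-encoded subunits of the complexes that the mitochondrial mRNAs contribute to seldom rose either. Of 74 matched and 73 tested, 2 were called higher and 24 lower, with a median log2 fold change of -0.11. Over all tested genes, 21.6% were called higher and 21.3% lower. The count of 24 was 13 without shLOXL2 replicate 1 and 14 without shLOXL2 replicate 2, in fits that called 17.1% of all tested genes lower. Both of these counts were near that share. At the other end, the count reached 35 with a library left out. No fit with a library left out called more than 22% of all tested genes lower. The count of 2 was 1 in each of 5 fits with a library left out (shControl replicate 2 or 3, or any shLOXL2 replicate). In complex I, 9 of 36 fell, near the share over all genes, and 1 rose. NDUFB3 (-0.56) and NDUFB9 (-0.31), accessory subunits, were among the falls. In complex III, the 4 called of 9 were lower, among them CYC1, cytochrome c1 (-0.27), and UQCRFS1, the Rieske iron-sulfur protein (-0.22).

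Complex IV held both extremes of the nuclear subunits. Of its 11 tested, 1 was called higher and 5 lower, beside 21.6% and 21.3% of all tested genes. COX7C stood at 90.8, 93.9 and 87.9 CPM in shControl and at 150.0, 145.6 and 154.1 in shLOXL2, and rose by 0.72 on the log2 scale (SE 0.05, adjusted p = 9.1e-07 in edgeR). COX8A stood at 144, 149 and 143 against 91.2, 89.3 and 94.0 CPM, and fell by 0.67 on the log2 scale (SE 0.04, adjusted p = 1.16e-06 in edgeR). Both encode small membrane subunits of the same enzyme, and in both the libraries of a group lay close together. In complex V, the 6 called of 17 were lower, beside 21.3% of all tested genes. Among them were ATP5MC2 (-0.55) and ATP5MC1 (-0.37), genes of the rotor ring subunit c.

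The 13 mitochondrial mRNAs had 405%, 461% and 382% of the summed counts of the nuclear subunits in shControl and 579%, 767% and 571% in shLOXL2. The groups did not overlap, and the log2 ratio was higher by 0.61 with shLOXL2, a 1.53-fold difference (exact permutation p = 0.1, adjusted 0.2 over 4 ratios). It ranged from 0.47 to 0.69 when a library was left out. In complex III the mitochondrial mRNA sum differed by 0.45 on the log2 scale and the nuclear sum by -0.16, and in complex IV the differences were 0.54 and -0.12. The nuclear sums of complexes III and IV were lower in every shLOXL2 library than in any shControl library, and those of complexes I and V overlapped (exact permutation p = 0.1 and 0.2, adjusted 0.133 and 0.2).

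**Figure D5:**
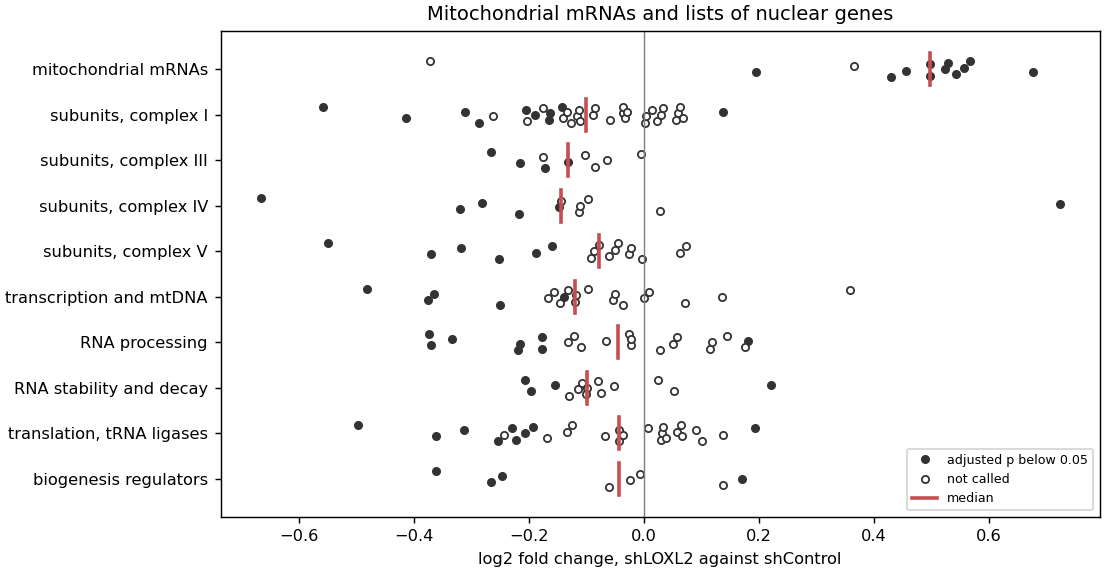
Log2 fold change of shLOXL2 against shControl for the 13 mitochondrial mRNAs, the nuclear subunits by complex and the lists of the expression machinery; each point is a tested gene, filled where the edgeR adjusted p was below 0.05, and the bar is the list median. The mitochondrial mRNAs have a median of 0.50, and the nuclear lists have medians between -0.14 and -0.04.

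The ATAC-seq peak lists held no peak on chrM and none over the chromosome 1 copy. This was so in all 6 lists, which have 27099 to 55592 peaks each. Whether chrM reads or peaks were removed before the lists were made is not given in the sources used here, so accessibility of the mitochondrial genome was not measured by these lists.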

How the data were processed

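For RNA-seq the authors deposited 1 table per library with the raw count of each gene as a whole number. Per the submitters' processing notes, the tools were STAR 2.7.6a, R 4.0.2 and DESeq2 1.30.0 on GRCh37.p13. The strand setting, the annotation release and any poly(A) selection are not given in the sources used here, and without strand, reads of genes on opposite strands cannot be told apart. The ATAC-seq lists hold a score per peak from the authors, which was not used, and only peak positions were read. ChIP samples were not analysed here.

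Gene identifiers were matched without their version to GENCODE v44lift37 on GRCh37, and 96.1% had a symbol. CPM are counts scaled by the TMM library size. Genes were filtered with filterByExpr and tested with edgeR 4.0.16 (glmQLFit with trended dispersion, glmQLFTest) and Benjamini-Hochberg adjustment over 15602 genes, in R 4.3.3, after the script was tested on simulated data. Shares and ratios were tested by two-sided exact permutation in Python 3.11.15 with numpy 2.4.6 and pandas 2.3.3. blastn 2.17.0 compared chrM with the nuclear chromosomes at 85% identity or more. The 13 mRNAs and 2 rRNAs were ranked by level per kb.

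The members and lists were chosen with earlier results of these data known. Named were LOXL2, the mRNAs and rRNAs, the 3 tRNAs with most counts per strand and every called tRNA, the 3 genes of smallest p per machinery list with TFAM, POLRMT, TFB2M, TEFM, LRPPRC and SLIRP, the 5 nuclear copies with most counts and the 2 subunits of smallest p per complex. GABPA, RN7SK, RN7SL2, MT-TV, MT-TN, MT-TC and MT-TK fall outside this rule and were named after their values were seen. A gene this rule names is not reported here. Alternatives were a replicate block, RLE scaling, DESeq2 1.42.0, limma-voom (limma 3.58.1), no filter, scaling without mitochondrial genes or to their sum, a threshold of 0.01, other denominators and each replicate left out. Same-numbered replicates did not deviate together (correlations -0.05, -0.06 and -0.11), so the counts show no pairing by number. Whether same-numbered libraries were made together is not given in the sources used here.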

Additional observations from a re-analysis of the deposited data

How the results depend on the processing

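The share and ratio differences and the list medians kept their direction under the alternatives run for them, other than scaling to the summed mitochondrial counts, under which the median of the 13 mRNAs was -0.0083 and that of the 24 tested genes -0.086. This scaling sets the sum equal in all libraries by construction: 2 genes were then changed in place of 14, 0 higher and 2 lower (MT-ND6 and MT-TP, adjusted over the 24 fitted genes alone), and log2 fold changes turned for MT-RNR1 (-0.41), MT-RNR2 (-0.083), MT-ND2 (-0.0083), MT-ATP8 (-0.17), MT-ATP6 (-0.0096), MT-ND3 (-0.29), MT-ND5 (-0.073), MT-CYB (-0.050), MT-TL1 (-0.20) and MT-TI (-0.47). With libraries left out, MT-TI ranged from -0.10 to 0.16. Mitochondrial genes called lower, 0 in the main test, were 1 with no filter, 1 with limma-voom and 0 to 1 with a library left out (1 without shLOXL2 replicate 2), each time MT-ND6. The fit with no filter called 11.3% of its genes lower. With all libraries the groups of MT-ND6 overlapped, so its call with no filter is not counted as support for a fall. Machinery genes called higher, 4, were 1 to 7 with a library left out. Nuclear subunits called higher, 2, were 1 with no filter and 1 to 2 with a library left out, and those called lower, 24, were 13 to 35. The fits with a library left out called 17.1% to 22% of all tested genes lower. The cause was not tested.

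The counts show no pairing by replicate number. With that number as a block, machinery genes called higher were 2 and nuclear subunits called higher 1. In that fit 5793 genes were called over all in place of 6686. The share and ratio differences are the same numbers with the block, and sign flips within 3 pairs cannot give a p below 0.25. RLE scaling and scaling without mitochondrial genes moved the median log2 fold change of all genes by 0.00027 and -0.0015. Groups of 3 keep the exact permutation p of shares and ratios at 0.1 or more, and the tRNA results rest on few counts, 504 for the 8 minus-strand tRNAs in all libraries.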
